A study of Mus musculus with 6 samples.

Results

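The genes described here are the chromosome 14 neighbours of *leene*, the mouse lncRNA gene deleted in *leene*-KO mice. All genes of the counted annotation whose lowest coordinate lay between 45.79 and 49.81 Mb of chromosome 14 (GRCm38) were taken, a window of 2 Mb on each side of *leene*, whatever their level or change. The window held 52 of 47728 genes. Of these, 27 had 10 or more counts summed over the libraries, and 21 had enough counts to be tested. RNA-seq of poly(A) RNA was performed on lung endothelial cells (ECs) of male mice of 14 weeks on a C57BL6 background, in 3 WT and 3 *leene*-KO libraries. Both groups had been infused with angiotensin II (AngII), the vasoconstrictor peptide used to raise blood pressure, at 1000 ng/kg/min for 2 weeks by osmotic pump, so no comparison with mice without AngII was made. The deletion is carried by every cell of the KO animal, not by ECs alone. The labels describe cells enriched by CD31 and pooled from 3 mice per group, so p-values measure the spread between libraries, which may be technical.

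Long noncoding RNA genes can act on neighbouring genes, through their transcription, their transcript or DNA elements in the locus, or can act on distant genes through the transcript alone. A deletion removes the DNA of a locus together with its RNA. The expression of the neighbours is therefore commonly examined in animals that lack such a gene. *Gm41148*, the putative mouse *leene*, lies on the minus strand at 47790968 to 47805349 of chromosome 14. The other lncRNA genes of the deleted region are *Gm49302* on the minus strand (47800740 to 47801465) and *Gm35360* on the plus strand (47805235 to 47823104). None of the 3 was in the counted annotation, and 0 counted genes overlapped them, so loss of *leene* RNA could not be checked in these counts.

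To show what the start of *leene* and of its neighbours looks like, 5 promoters of 300 bases are printed 5′ to 3′ from RefSeq (GRCm38.p6). They are those of *leene*, of the nearest tested gene on each side with a promoter in the table (*Ktn1* and *Peli2*), of the member with the lowest unadjusted p (*Samd4*), and of a member that shares its start region with another gene (*Ap5m1*). Capitals mark CACCC or its reverse complement GGGTG, the core bound by Krüppel-like factors, which control many endothelial genes.
Gm41148 (leene) (chr14:47805323-47805622, minus strand): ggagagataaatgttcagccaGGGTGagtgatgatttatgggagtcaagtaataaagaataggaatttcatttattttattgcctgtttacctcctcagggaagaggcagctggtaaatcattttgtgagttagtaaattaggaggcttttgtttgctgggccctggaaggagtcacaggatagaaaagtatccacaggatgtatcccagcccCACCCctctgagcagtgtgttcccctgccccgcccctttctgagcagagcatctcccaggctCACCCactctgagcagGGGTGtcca
Ktn1 (chr14:47649061-47649360, plus strand): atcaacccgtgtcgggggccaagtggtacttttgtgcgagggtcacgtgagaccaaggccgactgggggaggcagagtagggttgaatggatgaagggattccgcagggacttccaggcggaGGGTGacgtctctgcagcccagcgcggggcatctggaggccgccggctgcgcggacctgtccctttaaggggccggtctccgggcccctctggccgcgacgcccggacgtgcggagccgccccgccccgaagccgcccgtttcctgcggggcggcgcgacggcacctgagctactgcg
Peli2 (chr14:48120619-48120918, plus strand): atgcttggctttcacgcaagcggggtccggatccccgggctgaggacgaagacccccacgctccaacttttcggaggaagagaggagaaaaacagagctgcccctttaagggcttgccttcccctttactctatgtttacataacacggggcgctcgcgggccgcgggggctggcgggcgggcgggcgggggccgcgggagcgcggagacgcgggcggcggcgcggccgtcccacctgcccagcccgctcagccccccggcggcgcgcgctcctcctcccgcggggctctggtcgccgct
Samd4 (chr14:46882715-46883014, plus strand): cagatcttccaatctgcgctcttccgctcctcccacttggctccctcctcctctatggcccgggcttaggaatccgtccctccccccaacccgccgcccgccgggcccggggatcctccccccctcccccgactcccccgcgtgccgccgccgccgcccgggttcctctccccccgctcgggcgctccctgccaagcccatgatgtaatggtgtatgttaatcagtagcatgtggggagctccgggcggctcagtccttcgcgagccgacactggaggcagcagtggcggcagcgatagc
Ap5m1 (chr14:49066299-49066598, plus strand): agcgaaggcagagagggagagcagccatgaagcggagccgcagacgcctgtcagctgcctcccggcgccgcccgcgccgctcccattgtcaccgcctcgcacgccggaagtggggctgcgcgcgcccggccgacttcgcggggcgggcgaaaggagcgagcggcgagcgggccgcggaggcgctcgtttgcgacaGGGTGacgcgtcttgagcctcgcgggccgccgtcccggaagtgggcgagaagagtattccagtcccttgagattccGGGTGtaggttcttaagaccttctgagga

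CACCC was found 4 times in the *leene* promoter, counting both strands. It was found 2 times in that of *Ap5m1*, 1 time in that of *Ktn1* and 0 times in those of *Peli2* and *Samd4*. The *leene* promoter held 1 CG dinucleotide, against 33 in *Ktn1*, 38 in *Peli2*, 27 in *Samd4* and 41 in *Ap5m1*. Among tested members, 19 of 21 were matched to a RefSeq promoter, and CACCC on either strand was present in 11 of 19 (57.9%), against 57.5% of 32851 promoters in the table. The GC box letters GGGCGG were present in 78.9% of the members' promoters against 35.7% of all. CCAAT was present in 31.6% against 37.4%, and TATAAA in 5.26% against 13.6%, in each case on either strand. At least 10 CG dinucleotides were present in 19 of 19, against 43.5% of all promoters. The members were limited to genes with enough counts to be tested, while the table's promoters were taken whatever the level of the gene. The sets are therefore unlike, and the part of this in the differences was not tested. A match is a description of letters and not of binding.

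The libraries held 24464324 to 35184063 counts in WT and 26159650 to 29189294 in KO, of which mitochondrial genes took 37.4% to 54.45%. Summed levels, in CPM (counts of each library scaled to the same effective library size), showed all 8 endothelial markers present in every library, at 1110 to 2240 CPM in WT and 1450 to 2440 in KO. Markers of alveolar type II cells, the surfactant-producing epithelium, summed to 4930, 46400 and 14400 CPM in WT replicates 1, 2 and 3 and to 36600 to 45000 in KO. Macrophage markers ran from 1470 to 13100 CPM in WT and from 11500 to 13400 in KO, of which *Lyz2*, which type II cells also express, made up 1430 to 13000 and 11400 to 13400. The other 5 macrophage markers were each at 3.65 to 28.1 CPM in WT and 3.59 to 42.9 in KO. B cell markers were at 6.46 to 16.4 CPM in WT and 59.2 to 65.3 in KO, with 3 of 5 markers called. T cell markers were at 1.66 to 3.38 and 4.45 to 6.79 CPM, mesenchymal markers at 329 to 681 and 451 to 649, and airway markers at 10100 to 24000 and 21800 to 35200. No marker was at 0 in any library. In bulk RNA, fewer cells of a type and less RNA per cell cannot be told apart.

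Whether genes near the deletion changed was examined first. None of the 21 tested members was called at an adjusted p under 0.05 with the quasi-likelihood test of edgeR and Benjamini-Hochberg adjustment, where 0.109% of 14625 genes were called (16 genes). DESeq2 also called 0 members, against 1.21% of genes, and limma-voom 0, against 0.178%. At an unadjusted p under 0.05, 2 of 21 members (9.52%) passed, *Samd4* (lower in KO) and *Ktn1* (higher), against 10.3% of all genes, 4.68% lower and 5.62% higher. WT and KO libraries did not overlap for 5 of 21 members (23.8%), against 17.8% of all genes. *Samd4* lay lower in KO (9.2% of all genes), and *Ktn1*, *Ap5m1*, *Cgrrf1* and *Armh4* lay higher (8.59%).

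The log2 fold changes of the members ran from -0.49 to 0.74 with a median of -0.03, against a median of 0.03 over all genes tested. Of the 21, 9 had a positive and 12 a negative value. The median absolute log2 fold change was 0.21 in the window and 0.22 over all genes. No member exceeded 1 in absolute value, against 4.5% of all genes. The 95% interval lay within 1 log2 unit of 0 for 14 of 21 members, and for 10 of the 12 with a mean of 10 CPM or more. For the other 7 the interval reached beyond 1 log2 unit. The 469 tested genes elsewhere on chromosome 14 had a median of 0.04, and the 24 in the next 2 Mb on each side had a median of 0.05, also with 0 genes called.

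**Figure D1:**
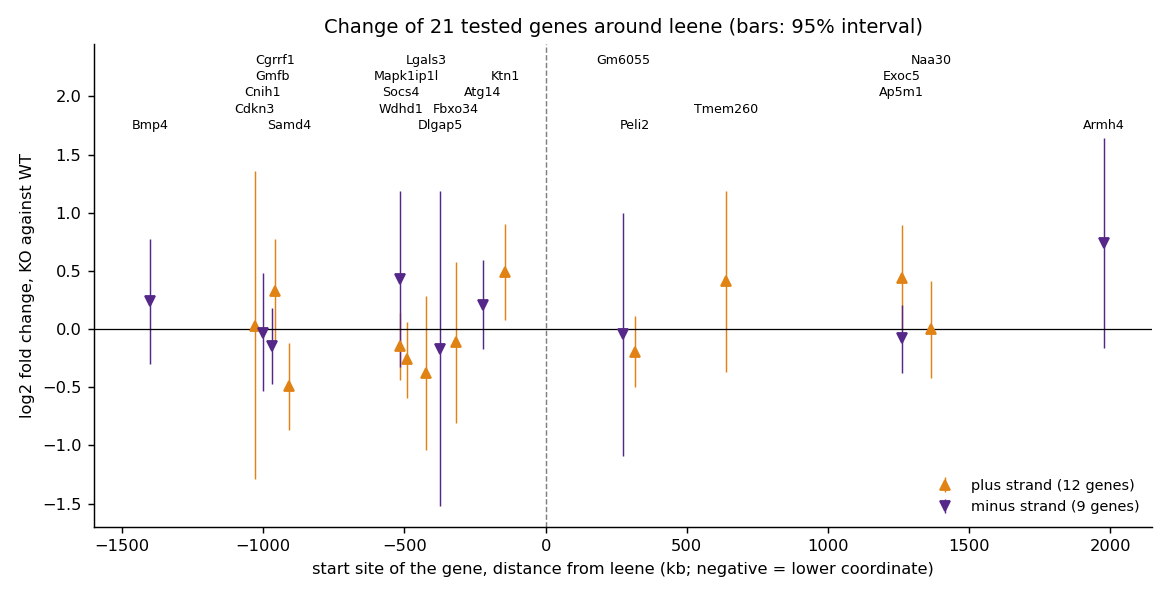
Log2 fold change, KO against WT, of the 21 tested genes (y axis) against the distance of their start site from *leene* in kb (x axis; dashed line, *leene*), with triangles by strand and bars for the 95% interval. Points lie between -0.49 and 0.74, and the intervals of *Ktn1* and *Samd4* are the ones that do not cross 0.

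The nearest tested gene was *Ktn1*, which encodes kinectin, an endoplasmic reticulum membrane protein that binds kinesin. It starts 142.5 kb below *leene*, on the plus strand at 47648448 to 47736564. Its level was 22.9, 34.5 and 32.8 CPM in WT replicates 1 to 3 and 44.2, 44.0 and 38.4 CPM in KO replicates 1 to 3. The groups did not overlap, KO being higher, with means of 30.1 ± 6.25 CPM in WT and 42.2 ± 3.31 CPM in KO (SD, n = 3 each). The log2 fold change was 0.49 (SE 0.18, 95% interval 0.08 to 0.90), with an adjusted p of 0.43 by edgeR's quasi-likelihood test. It was 0.32 to 0.57 when single libraries were left out, and 0.27 with the type II marker level as a covariate.

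Between *Ktn1* and *leene*, the unnamed gene ENSMUSG00000102171, 53.6 kb from *leene*, was detected but not tested. Its counts in WT were 6, 25 and 3, those in KO were 7, 8 and 24, and the groups overlapped. *Atg14*, which directs the class III PI3 kinase to autophagosome formation, starts 222.5 kb below *leene*. Its level was 10.1, 7.72 and 7.63 CPM in WT and 9.41, 9.90 and 10.1 in KO (log2 fold change 0.21, SE 0.16). The groups overlapped, through WT replicate 1.

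Above *leene*, the nearest tested gene was *Gm6055*, a processed pseudogene 274.4 kb away whose reads may belong to a related copy. Its level was 0.759, 0.881 and 0.89 CPM in WT and 1.29, 0.589 and 0.586 in KO. KO replicate 1 was the highest and the other KO libraries the lowest, and the log2 fold change was -0.04 (SE 0.45). *Peli2*, an E3 ubiquitin ligase of Toll-like and interleukin-1 receptor signalling, followed at 315.5 kb. Its level was 20.6, 23.3 and 18.9 CPM in WT and 18.4, 17.2 and 19.2 in KO. The groups overlapped, and the log2 fold change was -0.20 (SE 0.13, 95% interval -0.50 to 0.11).

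The lowest unadjusted p in the window belonged to *Samd4*, an RNA-binding repressor of translation of the Smaug family, whose gene spans 46882854 to 47105817 on the plus strand. Its level was 114, 88.5 and 86.7 CPM in WT and 70.4, 60.2 and 74.7 CPM in KO. All KO libraries lay below all WT libraries. The log2 fold change was -0.49 (SE 0.16, 95% interval -0.87 to -0.12), with an unadjusted p of 0.0165 and an adjusted p of 0.388 by edgeR's quasi-likelihood test. DESeq2 gave an adjusted p of 0.237. The log2 fold change was -0.59 to -0.36 when single libraries were left out and -0.33 with the type II covariate.

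**Figure D2:**
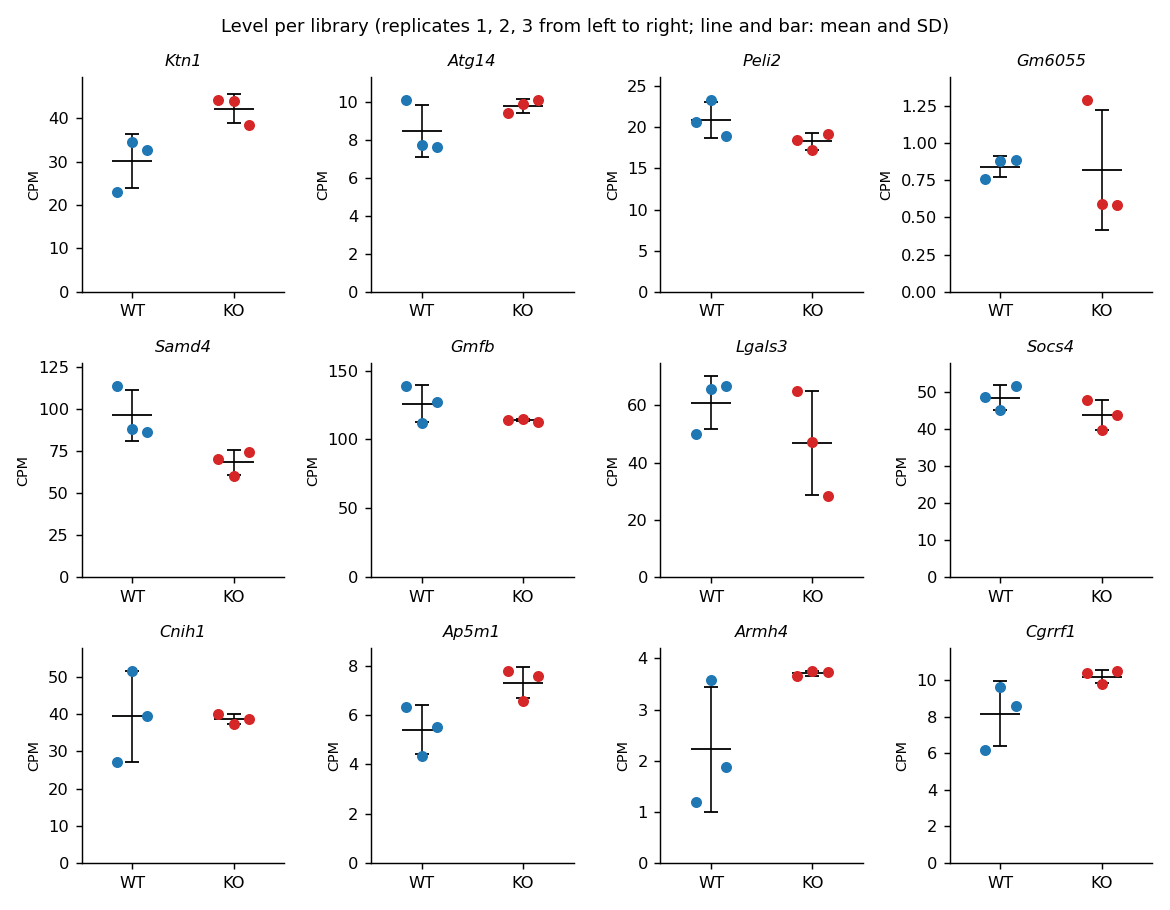
CPM (y axis, from 0) of 12 genes around *leene* in each WT and KO library (x axis), with points for replicates 1, 2 and 3 from left to right, lines for the mean and bars for the SD. *Ktn1*, *Ap5m1*, *Armh4* and *Cgrrf1* have all KO points above the WT points, *Samd4* has them below, and the remaining 7 overlap.

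Among genes of extracellular signals and their control, *Bmp4*, a bone morphogenetic protein ligand, measured 22.7, 38.8 and 21.1 CPM in WT libraries, against 32.5, 32.4 and 32.4 in KO. The KO libraries lay close together and within the WT range, and the log2 fold change was 0.24 (SE 0.23), or 0.11 without WT replicate 1, 0.53 without WT replicate 2 and 0.07 without WT replicate 3. *Socs4*, a suppressor of cytokine signalling, measured 48.7, 45.3 and 51.8 CPM in WT and 47.8, 39.7 and 43.8 in KO (log2 fold change -0.15, SE 0.13), with overlap. *Lgals3*, which encodes the secreted lectin galectin-3, measured 50.2, 65.9 and 66.9 CPM in WT libraries, against 64.9, 47.4 and 28.4 in KO. The KO libraries of *Lgals3* did not lie together, KO replicate 3 being the lowest of the 6, and its log2 fold change was -0.38 (SE 0.28, 95% interval -1.04 to 0.28), or -0.70 without KO replicate 1 and -0.12 without KO replicate 3. *Mapk1ip1l* was at 28.7 ± 3.26 and 23.9 ± 2.41 CPM (-0.26, SE 0.14).

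Among genes of membrane traffic, *Cnih1*, a cargo receptor for export from the endoplasmic reticulum, measured 27.2, 51.6 and 39.6 CPM in WT and 40.1, 37.5 and 38.8 in KO (log2 fold change -0.03, SE 0.22), KO lying inside the WT range. *Exoc5*, a subunit of the exocyst that tethers secretory vesicles, was at 38.4 ± 1.16 and 36.3 ± 4.02 CPM (-0.08, SE 0.13). *Ap5m1*, the medium subunit of the AP-5 adaptor of late endosomes, measured 6.32, 4.35 and 5.53 CPM in WT libraries, against 7.78, 6.58 and 7.59 in KO. All KO libraries of *Ap5m1* were above the WT libraries, the log2 fold change was 0.44 (SE 0.19) and the adjusted p was 0.494 by edgeR's quasi-likelihood test. Outside membrane traffic, *Tmem260*, which encodes an O-mannosyltransferase, measured 8.40, 23.4 and 12.3 CPM in WT libraries. In KO it measured 19.6, 20.4 and 18.4 CPM (log2 fold change 0.41, SE 0.34).

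Among genes of protein turnover and modification, *Cgrrf1*, a RING finger ubiquitin ligase, measured 6.19, 9.66 and 8.62 CPM in WT libraries, against 10.4, 9.82 and 10.5 in KO. The groups did not overlap, by a narrow margin, and the log2 fold change was 0.33 (SE 0.19). *Fbxo34*, an F-box protein, was at 4.29 ± 1.69 and 3.98 ± 0.603 CPM (-0.11, SE 0.30). *Naa30*, the catalytic subunit of the N-terminal acetyltransferase NatC, was at 16.1 ± 2.31 and 16.0 ± 2.74 CPM. Outside this group, *Gmfb*, a regulator of actin branches, measured 139, 112 and 127 CPM in WT libraries. In KO it measured 114, 115 and 113 CPM (-0.15, SE 0.14), so KO lay within the WT range. *Armh4*, a membrane protein and also outside this group, measured 1.20, 3.58 and 1.87 CPM in WT libraries, against 3.65, 3.75 and 3.73 in KO. Its log2 fold change of 0.74 (SE 0.39, adjusted p 0.544 by edgeR's quasi-likelihood test) was 0.42 without WT replicate 1 and 1.26 without WT replicate 2, whose level was close to KO.

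Genes of cell division in the window were at low levels. *Cdkn3*, a phosphatase of cyclin-dependent kinases, was at 0.582 ± 0.298 CPM in WT and 0.585 ± 0.233 in KO (log2 fold change 0.03, SE 0.57). *Dlgap5*, a spindle protein, was at 0.733 ± 0.334 and 0.646 ± 0.321 CPM (-0.17, SE 0.58). *Wdhd1*, which works at the replication fork, was at 1.41 ± 0.212 and 1.90 ± 0.535 CPM (0.43, SE 0.33). The 95% intervals of these 3 genes reached beyond 1 log2 unit, in both directions for *Cdkn3* and *Dlgap5* and upwards for *Wdhd1*.

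Levels per kb of exon, averaged over the 6 libraries, ordered the members from *Lgals3* at 29.0 CPM per kb to *Dlgap5* at 0.104. *Gmfb* followed at 27.0 and *Cnih1* at 24.9, and the libraries of these 3 genes overlapped. *Bmp4* was at 13.5, *Samd4* at 9.66, *Socs4* at 6.72 and *Mapk1ip1l* at 5.7 CPM per kb. *Ktn1* (3.77), *Exoc5* (3.76) and *Peli2* (3.35) overlapped each other. Summed over the 52 members, the level was 574.0, 594.8 and 574.5 CPM in WT and 570.1, 520.8 and 531.1 in KO. All KO sums lay below all WT sums, by a narrow margin for KO replicate 1. *Gmfb* and *Samd4* together made up 32.4% to 44.1% of the sum. Scaled by total counts instead, the same sum was 501.5 to 788.3 in WT and 485.1 to 550.1 in KO, and the groups overlapped. The median SD between replicates, as log2(CPM + 0.5), was 0.23 in WT and 0.13 in KO for the members, and 0.25 and 0.18 over all genes.

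**Figure D3:**
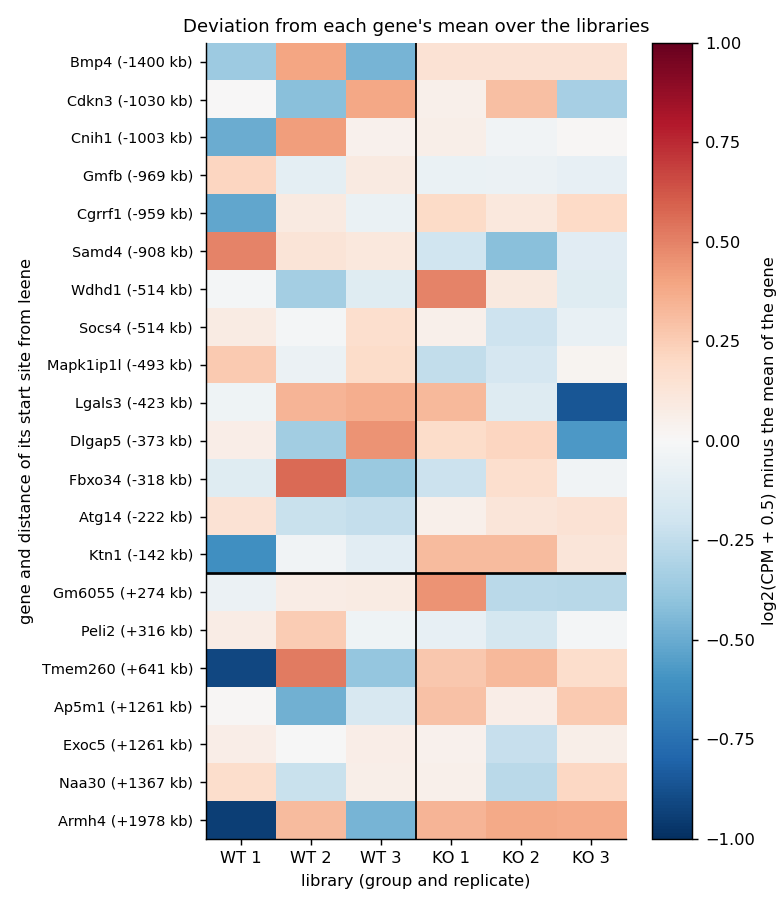
Deviation of log2(CPM + 0.5) from the gene's own mean (colour) for the 21 tested genes in order along chromosome 14 (rows; horizontal line, *leene*) in each library (columns; vertical line between WT and KO). *Atg14*, *Ktn1*, *Bmp4*, *Cgrrf1*, *Tmem260*, *Ap5m1* and *Armh4* are above their mean in all 3 KO libraries. *Samd4*, *Gmfb* and *Peli2* are below theirs in all 3. *Gm6055*, the nearest tested gene above *leene*, is above its mean in KO replicate 1 and below it in the other KO libraries. Median deviations per library lie between -0.01 and 0.07.

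Change against distance from *leene* was then examined as a description over genes, which share libraries and are not replicates. Spearman's rho between log2 fold change and distance of the start site was 0.29 over 21 genes, and -0.06 for the absolute log2 fold change. It was 0.05 over the 14 genes below *leene* and 0.54 over the 7 above. The 8 members within 0.5 Mb gave -0.90, and the 14 within 1 Mb gave -0.15. Within 0.5 Mb the log2 fold changes ran, in order of distance, 0.49 for *Ktn1*, 0.21 for *Atg14*, -0.04 for *Gm6055*, -0.20 for *Peli2*, -0.11 for *Fbxo34*, -0.17 for *Dlgap5*, -0.38 for *Lgals3* and -0.26 for *Mapk1ip1l*. None of the 8 was called, this window was looked at again after its value was seen, and rho was -0.57 without WT replicate 3 and -0.64 with the type II covariate. By strand, the median was -0.06 for 12 genes on the plus strand and -0.03 for 9 on the minus strand.

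Neighbours that start next to each other on opposite strands were compared as ratios within each library. *Wdhd1* and *Socs4* start 74 bp apart. The log2 ratio of *Socs4* to *Wdhd1* was 4.94, 5.27 and 5.16 in WT and 4.26, 4.49 and 4.92 in KO, a difference of -0.56. *Exoc5* and *Ap5m1* start 158 bp apart and overlap by 159 bp, and reads were assigned by strand. The log2 ratio of *Ap5m1* to *Exoc5* was -2.63, -3.09 and -2.82 in WT and -2.30, -2.26 and -2.36 in KO, a difference of 0.54. WT and KO ratios did not overlap in either pair, and *Ap5m1* alone already did not overlap. Of single genes, 17.8% did not, and the share among ratios of other pairs was not computed. *Wdhd1* had 31 to 65 counts per library. The two-sided exact permutation p was 0.1 for each pair, the smallest that 3 against 3 libraries allow, also after adjustment over the 2 pairs.

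Members were then set beside the type II marker level. *Tmem260* was at 8.40 CPM in WT replicate 1, where type II markers were lowest, and at 23.4 in WT replicate 2, where they were highest. Among WT libraries, *Armh4*, *Cnih1*, *Ktn1* and *Cgrrf1* were also highest in WT replicate 2 and lowest in WT replicate 1. *Bmp4*, *Fbxo34* and *Peli2* were highest in WT replicate 2 but lowest in WT replicate 3. With the type II level as a covariate, the log2 fold change was -0.08 for *Tmem260*, 0.24 for *Armh4* and -0.05 for *Bmp4*. It was 0.27 for *Ktn1* and 0.10 for *Cgrrf1*, against 0.49 and 0.33 without the covariate. Other members moved away from 0 under the same covariate, *Cnih1* to -0.35, *Ap5m1* to 0.69, *Atg14* to 0.37, *Fbxo34* to -0.41 and *Wdhd1* to 0.62. The part of these cells in the values was not tested further. Without WT replicate 2, *Tmem260* had a log2 fold change of 0.89 and an adjusted p of 0.0416 by edgeR's quasi-likelihood test, where 5.29% of all genes were called. No other member was called under any of the 14 alternative settings.

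**Figure D4:**
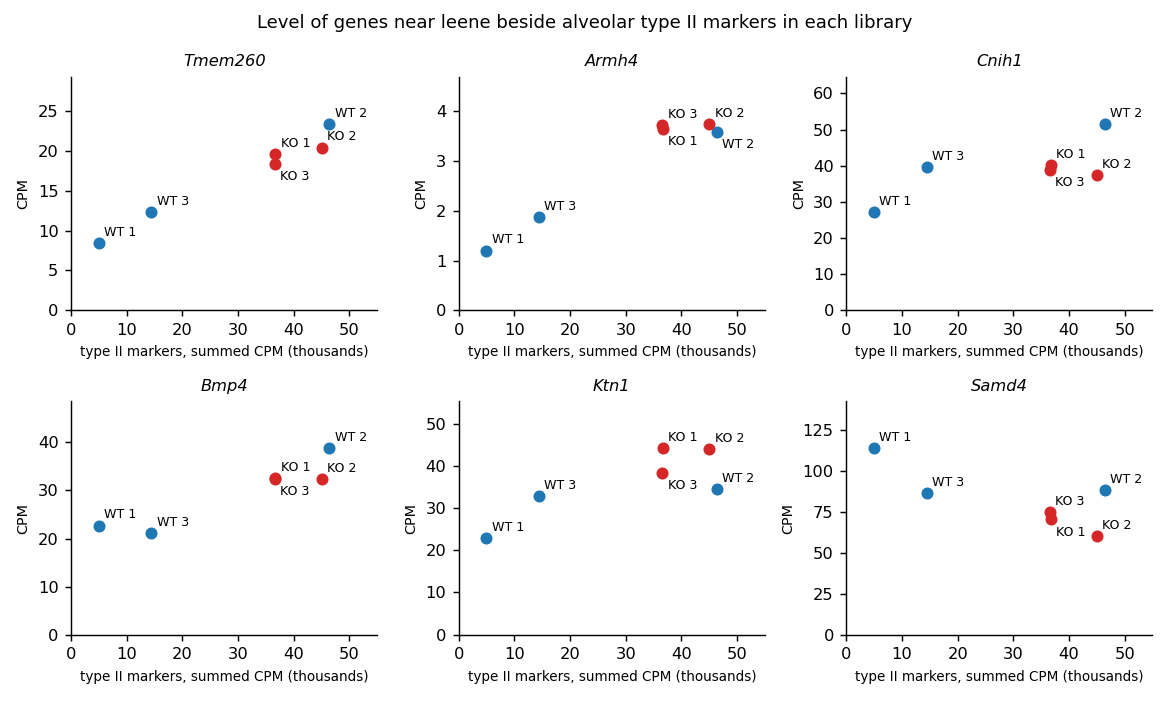
CPM of members (y axis, from 0) against the summed CPM of 5 alveolar type II markers (x axis, divided by 1000), 1 labelled point per library. *Tmem260* runs from 8.40 CPM in WT replicate 1 to 23.4 in WT replicate 2, with the KO libraries between 18.4 and 20.4.

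Genes elsewhere in the genome that belong to the same complex, process or gene family as a member were taken from 12 lists, and 0 of them were called in any list (background 0.109%). Counts at an unadjusted p under 0.05 are given against 10.3% of all genes. The 8 exocyst partners of *Exoc5* had a median log2 fold change of -0.04 (range -0.28 to 0.35). The 5 partners of *Ap5m1* had -0.05, with *Ap5s1* at 0.47 and *Ap5z1* at -0.27. The 4 of *Atg14* had 0.06, with 1 at an unadjusted p under 0.05, *Pik3r4* (0.53), and the 2 of *Naa30* -0.12. The 7 other SOCS genes had -0.19, with 2 at an unadjusted p under 0.05, *Socs3* (-0.52) and *Socs2* (-0.34). The 6 other galectins had -0.08, with 1 at an unadjusted p under 0.05, *Lgals9* (-0.50). The 12 genes of BMP signalling had 0.14, with 2 at an unadjusted p under 0.05, the target genes *Id1* (-0.49) and *Id2* (0.34). The 10 mitotic genes had -1.0, with 5 at an unadjusted p under 0.05, among them *Top2a* (-1.22) and *Mki67* (-0.95), while the mitotic members *Cdkn3* and *Dlgap5* had the values given above. The 11 replication fork genes had -0.06, with 2 at an unadjusted p under 0.05, *Mcm2* (-0.47) and *Mcm4* (-0.35). The 2 other Pellino genes had 0.28, the 1 other tested glia maturation factor had 0.09, and the 1 other tested cornichon gene had -0.00031.

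**Figure D5:**
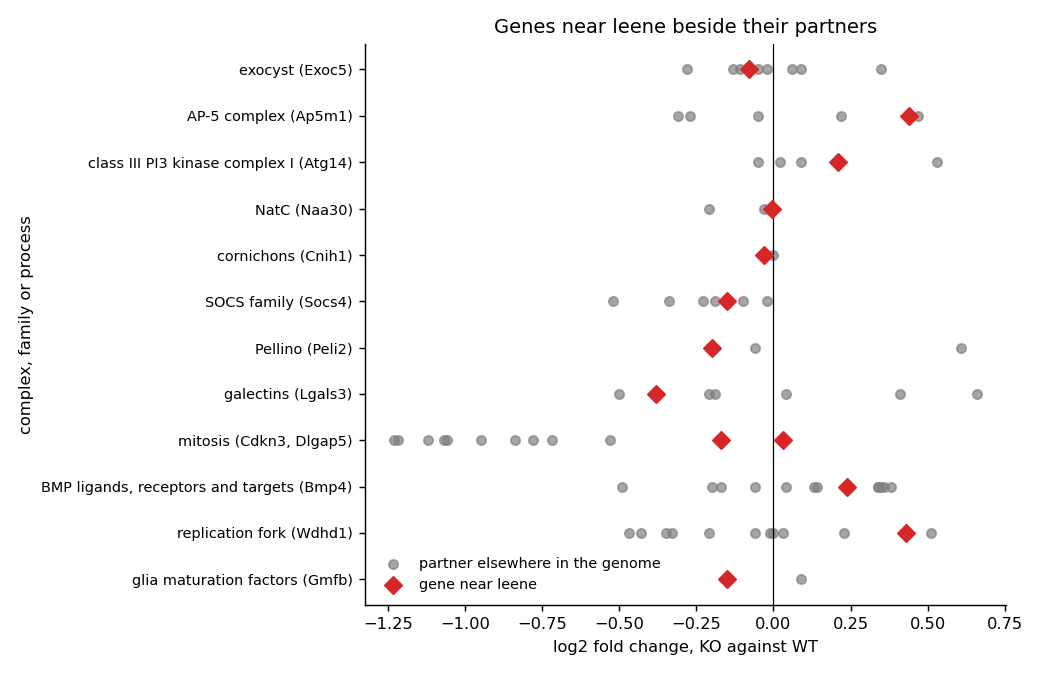
Log2 fold change, KO against WT (x axis), of the genes of each of 12 partner lists (rows), with genes of the window marked apart from the rest. Mitosis genes elsewhere in the genome lie between -1.23 and -0.53, and the mitosis genes of the window, *Cdkn3* and *Dlgap5*, at 0.03 and -0.17. Exocyst genes lie between -0.28 and 0.35.

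Of the 31 members not tested, 6 were detected and 25 had under 10 summed counts, 18 of them with no count. The detected ones other than ENSMUSG00000102171 were *Gm1821*, *Gm15222*, *Gm10101*, *Gm10371* and *Gm3534*. Counts of *Gm1821* were 9, 6 and 5 (WT) against 5, 2 and 3 (KO). Those of *Gm15222* were 2, 3 and 1 against 6, 4 and 1, and those of *Gm10101* were 1, 7 and 8 against 2, 3 and 2. Those of *Gm10371* were 9, 1 and 0 against 0, 0 and 3, and those of *Gm3534* were 2, 1 and 1 against 1, 1 and 4. Scaled to CPM, the groups overlapped in each of these. *Otx2*, a homeobox gene of brain and eye, had 1 count in all, and *Slc35f4* had 6. Protein-coding genes made up 24 of the 52 members, and 20 of these were tested.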

How the data were processed

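Poly(A) RNA of lung ECs was sequenced in 6 libraries, grouped as WT or KO by the labels. The authors deposited raw counts, 1 table per library. Per the file headers, featureCounts 2.0.0 counted uniquely aligned reads in reverse orientation over Ensembl release 84 genes (GRCm38). The submitters' processing notes name STAR 2.5.4b and bcl2fastq 2.18. Reads shared with near-identical copies were therefore not counted. No per-sample column was left unused. Symbols came from GENCODE M21. Libraries held 24464324 to 35184063 counts, and the number of libraries limits precision.

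WT and KO were compared over 14625 genes with edgeR 4.0.16 (R 4.3.3) on default-filtered counts with TMM scaling, quasi-likelihood tests and Benjamini-Hochberg adjustment at 0.05. CPM used TMM-scaled library sizes. Ratios of neighbours were compared by exact permutation. Alternatives were other scalings and filters, DESeq2 1.42.0, limma 3.58.1, a replicate block, a type II covariate, other windows and each library left out. Values by library are given for the 2 tested members nearest to *leene* on each side, members with an unadjusted p under 0.05 or groups that do not overlap, the 5 with the highest mean CPM and, beyond this rule, a few more. Members and lists were chosen with earlier results of these data known. A further gene of the window is not reported here.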

Additional observations from a re-analysis of the deposited data

How the results depend on the processing

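Members kept their direction in all but 19 of 294 member and setting pairs, spread over 8 members, and 1 pair was called (*Tmem260* without WT replicate 2). With total-count scaling, which moved the median of all genes from 0.03 to -0.13, 123 genes of the genome were called, 1 member had an unadjusted p under 0.05, and the median was -0.19 over the members, -0.23 on the plus and -0.14 on the minus strand. RLE scaling called 26 genes, limma-voom 26, the type II covariate 49, and DESeq2, which kept 34 members, 187, with a minus-strand median of 0.17 over those. A minimum of 10 summed counts called 25, with rho against distance 0.08 and a plus-strand median of 0.0072. No filter, also with 34 members, called 152, with a minus-strand median of 0.20. A window of 1 Mb gave a median of -0.13 and rho -0.15, and 0.5 Mb gave -0.14, -0.90 and 1 member at an unadjusted p under 0.05.

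With 1 library left out, 0 to 791 genes were called, 0 to 1 members were called and 0 to 7 members had an unadjusted p under 0.05. The 791 and the 7 came without WT replicate 2, where 21.3% of all genes had an unadjusted p under 0.05. The 0 genes came without any 1 KO replicate (992, 986 and 1112 genes at an unadjusted p under 0.05). The members' median was -0.05 to 0.15, that of the plus strand -0.15 to 0.02 and of the minus strand -0.07 to 0.19, and rho was 0.11 to 0.22.

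Sign changes were -0.05 for *Bmp4*, 0.15 for *Dlgap5*, -0.08 for *Tmem260* and 0.20 for *Naa30* with the type II covariate, -0.14 for *Cdkn3* with total-count scaling and -0.0031 with DESeq2, and 0.02 for *Cnih1* with limma-voom. Without single libraries, values of the other sign were -0.32, -0.01 and -0.31 for *Cdkn3*, 0.18 for *Cnih1*, 0.17 and 0.20 for *Dlgap5*, 0.21 for *Fbxo34*, 0.12 and 0.15 for *Gm6055*, and 0.09 in both cases for *Naa30*. With single libraries left out, *Cdkn3* ran from -0.32 to 0.41, *Cnih1* from -0.24 to 0.18, *Dlgap5* from -0.49 to 0.20 and *Gm6055* from -0.53 to 0.15. The causes were not tested.

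Same-numbered WT and KO libraries had deviations that correlated at -0.1, 0.32 and 0.02. The value of 0.32, for replicate 2, was the highest of all WT and KO pairs, while WT replicates 1 and 3 correlated best with another number. Deviations were taken from the mean of each group, which ties these values together. They cannot decide whether the numbers pair the libraries. The replicate block called 0 genes (1776 at an unadjusted p under 0.05) and 0 members, and gave 0.02 for *Cnih1*.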
